A study of Mus musculus with 9 samples.

Results

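Gene expression in mouse bone marrow-derived dendritic cells exposed to lysophosphatidic acid (LPA) for 6 h was compared with that in the same kind of cells exposed for 2 h. The members are the 3 libraries labelled as 6 h of LPA and the 3 labelled as 2 h, 6 of the 9 libraries of the series, and every gene with enough reads, which was 14363 of the 38887 rows of the count table. The other 3 libraries are untreated cells; their values are printed beside the LPA libraries for reference. All 9 are mRNA libraries of cultured mouse cells, and the labels give no mouse strain, LPA dose, vehicle or culture time for any group. The series title places the work in the study of how LPA from ovarian tumors affects type I interferon responses. The labels do not say whether the replicates are separate mice or cultures, and p-values therefore cover the spread among these libraries alone, which may be technical.

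LPA is a phospholipid messenger that signals through G protein-coupled receptors to calcium, MAP kinase and cyclic AMP pathways. Such signals first switch on short-lived transcription factor genes of the AP-1, EGR and NR4A families, and the products of these genes then act on later genes. Dendritic cells in culture make small amounts of type I interferon, which acts back on the cells through its receptor and a complex that holds IRF9 and keeps a large set of interferon-stimulated genes (ISGs) switched on. A comparison of the 2 exposure times gives the change after 2 h. Whether a gene was highest or lowest at 2 h or moved steadily is read from the untreated values printed beside it.

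Levels are read counts as a share of each library's total (CPM), scaled for library composition, and the 3 values of a group are given in the order of replicates 1, 2 and 3. Fold changes are log2 values of 6 h minus 2 h with their standard error (SE), n = 3 libraries per group, and a gene was called when its p from edgeR's quasi-likelihood fit, adjusted by Benjamini-Hochberg over all tested genes, was under 0.05. Totals were 47202425 to 84596899 counts at 2 h and 29628817 to 63050458 at 6 h. A single library stood apart: on the first principal component, which held 46.2% of the variance, 2 h replicate 2 lay at 9.7, 2 h replicates 1 and 3 at -4.7 and -12.4, and the 6 h libraries at 35.7 to 40.6. Among genes at least 2-fold higher at 6 h, 2 h replicate 2 was the 2 h library nearest to the 6 h libraries in 134 of 164, and among genes at least 2-fold lower in 410 of 492. Without that library the same direction was called for 6752 of the 6987 called genes that could be tested, and fold changes without it are given below wherever they moved by over 1.5-fold.

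The cell type label was checked against marker genes. Of 16 dendritic cell markers 15 reached 1 CPM in at least 1 library, among them Zbtb46, Flt3, Itgax and Clec9a. The summed level of the list was 6430 to 7060 CPM at 2 h and 5840 to 6320 CPM at 6 h. Most of that sum came from Cd74, with 3902, 3622 and 3410 CPM at 2 h. Flt3 had 8.53, 11.3 and 13.1 CPM and Clec9a 42, 42.9 and 38 CPM at that time. Cd209a was at or near 0. Of 14 macrophage markers 12 reached 1 CPM, with sums of 5030 to 5160 CPM at 2 h and 5220 to 5480 CPM at 6 h. The cultures thus also held macrophage transcripts such as Csf1r and Cd68. Csf1r was the largest part of these sums, with 2451, 2522 and 2597 CPM at 2 h. Cd14, which is also in them, had 105.5, 116.8 and 95.7 CPM in untreated cells. Its values were 900, 929 and 739 CPM at 2 h and 1060, 1116 and 1057 CPM at 6 h. By gene, 4 of 12 tested macrophage markers rose and 6 fell, beside 24.3% and 24.4% of all tested genes. In bulk samples, fewer cells of a type and less RNA per cell cannot be told apart.

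Between 2 h and 6 h, 3493 genes rose and 3498 fell, 24.3% and 24.4% of all genes tested and 48.7% together. The counts given below for each gene list are to be read beside these shares. Deep falls outnumbered large rises: 492 genes (3.43%) were called at least 2-fold lower and 164 (1.14%) at least 2-fold higher, and the latter count was 326 without 2 h replicate 2. The 2 times did not overlap in 58.9% of tested genes, with all 6 h libraries above all 2 h libraries in 29.2% and below them in 29.7%. The median log2 fold change of all tested genes was -0.01.

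**Figure D1:**
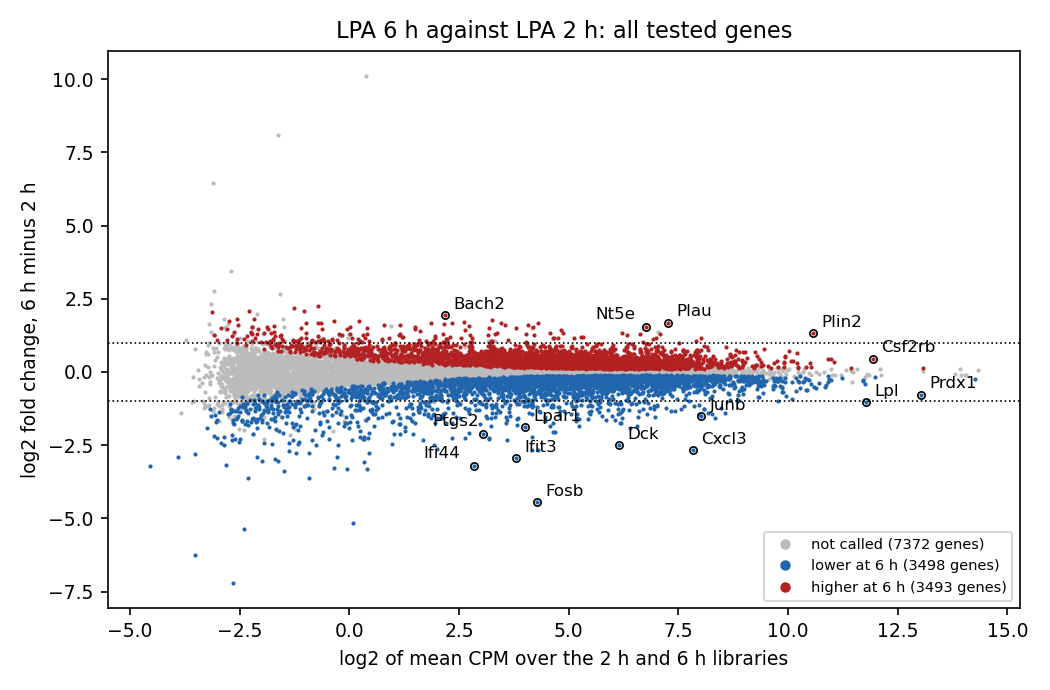
Log2 fold change of each tested gene (6 h minus 2 h, vertical axis) against the log2 of its mean CPM over the 2 h and 6 h libraries (horizontal axis). Red and blue points are the 3493 genes called higher and the 3498 called lower, grey points are not called, dotted lines mark 2-fold, and the circled genes are described in the text; Fosb lies lowest among them at -4.44.

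The largest falls combined early-response, interferon-stimulated and chemokine genes. The 12 largest falls and 12 largest rises were taken from genes whose 2 h and 6 h libraries did not overlap. Their lack of overlap therefore follows from that choice. Fosb (ENSMUSG00000003545, GRCm38 chromosome 7, 19302696 to 19310051, minus strand), an AP-1 subunit, had 35.6, 24.7 and 51.3 CPM at 2 h and 1.15, 1.71 and 2.06 CPM at 6 h. Every 2 h library was above every 6 h library, and the untreated libraries, at 0.297, 0.620 and 0.273 CPM, were below both. Its log2 fold change was -4.44 ± 0.36 (SE) with an edgeR adjusted p of 0.000107.

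The other 11 of the 12 largest falls ran from -3.21 to -2.31. Of these, 7 are known as ISGs: Ifi44, Ifit3, Rtp4, Ifit2, Ifi213, Ddx60 and Ifit1. Dck, deoxycytidine kinase of the nucleoside salvage pathway, had 120.5, 92.6 and 148 CPM at 2 h and 20.2, 21.6 and 21.7 CPM at 6 h, which made a difference of -2.50 ± 0.16 (SE) on the log2 scale. Gpr84, a receptor for medium-chain fatty acids, fell by 2.49, and the TNF family cytokine gene Tnfsf15 by 2.34. The neutrophil-attracting chemokine gene Cxcl3 fell by 2.68 and is described with the chemokines.

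The largest rises were smaller. Bach2, a transcriptional repressor best known from lymphocytes, had 1.14, 3.41 and 0.848 CPM at 2 h and 6.7, 7.24 and 7.91 CPM at 6 h. The 6 h libraries were all higher, with 2 h replicate 2 between them and the other 2 h libraries. The log2 fold change was 1.94 ± 0.44 (SE), with an edgeR adjusted p of 0.00846, and 2.86 without 2 h replicate 2.

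The same position of 2 h replicate 2, nearest to the 6 h libraries, was seen in all 12 of the largest rises and all 12 of the largest falls. Edil3, a secreted integrin ligand, rose by 1.76 with all libraries and by 2.62 without that one. The synaptic active-zone gene Rims3 rose by 1.72 and 2.69 and the small GTPase gene Rab15 by 1.67 and 2.41. The heme transporter family gene Flvcr2 rose by 1.62 and 2.24. The Rims3 call was lost without a filter, with only the 6 LPA libraries, or without 2 h replicate 1 or any one of the 6 h libraries. The remaining 7 moved by less than 1.5-fold when 2 h replicate 2 was left out. Plcb1, the phospholipase C that acts downstream of Gq, rose by 1.69, Plau by 1.68 and the inducible heat shock protein gene Hspa1a by 1.67. The kinase gene Sbk2 rose by 1.66, the ubiquitin ligase gene Rnf144b by 1.61, Ankrd63 by 1.6 and the adenylyl cyclase gene Adcy3 by 1.58.

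**Figure D2:**
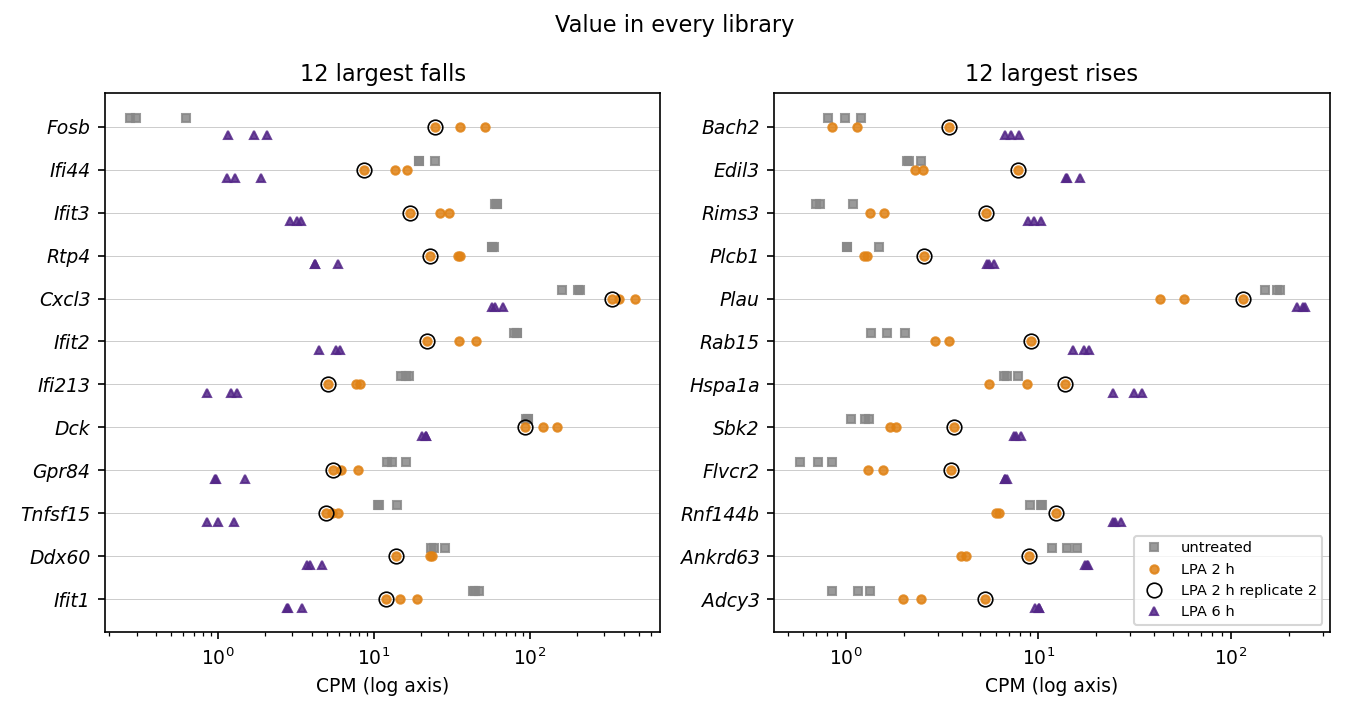
CPM (log axis) of the 12 largest falls and the 12 largest rises in each library. Squares are untreated, circles LPA 2 h and triangles LPA 6 h, with 2 h replicate 2 ringed; in every gene the ringed circle is the 2 h library closest to the triangles.

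Interferon-stimulated genes fell in most of the listed members. Over the 5 ISG lists, 76 of 92 tested members fell, 3 rose and 13 were not called, beside 24.4% and 24.3% of all tested genes. Of the members, 46 fell at least 2-fold, which was 9.3% of all genes that did so, and 11 at least 4-fold. ISGs on none of the lists, such as Ddx60 and Cxcl10, are not in these counts. The 3 that rose were Socs3, Mavs and Irf3, the last named after its values were seen. In the list of the IFIT genes and the ISG15 system 10 of 10 members fell. The median log2 fold change of this list was -2.16, beside -0.01 over all tested genes.

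Promoter sequences of 6 ISGs that fell are shown to let the motif of interferon-responsive promoters be seen, and they were chosen for holding it. Other ISGs that fell do not hold it in the window searched, as counted after the sequences. Each stretch is 60 bases from RefSeq (GRCm38.p6), taken upstream of the annotated start, on the gene's strand, with matches to GAAANNGAA, the core of the interferon-stimulated response element to which IRF proteins bind, in capitals on either strand. Capital runs longer than 9 letters are overlapping matches.
Isg15: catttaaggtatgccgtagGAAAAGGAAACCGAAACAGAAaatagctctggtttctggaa
Ifit1: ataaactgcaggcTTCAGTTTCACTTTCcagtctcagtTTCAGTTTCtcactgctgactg
Ifit3: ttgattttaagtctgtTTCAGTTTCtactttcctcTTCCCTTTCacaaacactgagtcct
Ddx60: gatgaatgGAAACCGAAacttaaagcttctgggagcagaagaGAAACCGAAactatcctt
Oas1a: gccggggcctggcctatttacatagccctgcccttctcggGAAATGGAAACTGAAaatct
Cxcl10: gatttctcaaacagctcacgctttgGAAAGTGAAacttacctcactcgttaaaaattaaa

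The stretches lie for Isg15 at chr4:156200856-156200915 (minus strand), Ifit1 at chr19:34640767-34640826 (plus strand), Ifit3 at chr19:34583392-34583451 (plus strand), Ddx60 at chr8:61928026-61928085 (plus strand), Oas1a at chr5:120907526-120907585 (minus strand) and Cxcl10 at chr5:92349068-92349127 (minus strand). In Isg15 the run begins 78 bases before the start and in Oas1a 20 bases before it, while the single match in Cxcl10 lies 213 bases before it.

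The same search was made in 1 promoter window per gene, from 250 bases before to 50 bases after the start. A window was found by symbol for 10505 of 14140 tested genes. Of these, 2105 had more than 1 window and only the first listed was searched. A gene counted as without a motif may therefore hold it in another window. GAAANNGAA occurred in 18.2% of 335 genes called at least 2-fold lower, 7.4% of 122 called at least 2-fold higher and 7.5% of all tested genes. Its share was 8.57% of all 27025 genes with a window, tested or not. Among the genes at least 2-fold lower, 22 of the 35 on an ISG list held it (62.9%) and 39 of the 300 on none (13%). The 300 include ISGs that the lists lack, such as Ddx60 and Cxcl10. The AP-1 site TGANTCA was in 11.6% of the genes at least 2-fold lower, 12.3% of those at least 2-fold higher, 5.2% of all tested and 7.93% of all with a window. The full cyclic AMP response element TGACGTCA was in 1.2%, 2.5%, 3.2% and 1.88%, and GGGACTTTC, one form of the NF-kappaB site, in 1.5%, 0%, 0.4% and 0.344% in the same order. Among the genes at least 2-fold lower, TGANTCA was in 10 of the 35 on an ISG list (28.6%) and 29 of the 300 on none (9.7%). It was in 0 of 12 genes on the AP-1 gene list described below and 0 of 12 on the list of EGR, NR4A, Myc and related genes. These shares describe letters in a window and were not tested.

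Isg15 encodes the ubiquitin-like protein that is attached to other proteins in interferon-treated cells. Its values were 44.7, 50.1 and 44.5 CPM in untreated cells, 32.1, 23.7 and 32.1 CPM at 2 h and 5.75, 6.19 and 6.82 CPM at 6 h. The 6 h libraries were the lowest and the untreated ones the highest, with no overlap among the 3 groups. The log2 fold change from 2 h to 6 h was -2.21 ± 0.12 (SE) (edgeR adjusted p 5.21e-06). The conjugating enzyme gene Ube2l6 fell by 1.11 and the ligase gene Herc6 by 0.80.

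Ifit3 had 26.5, 17 and 30.1 CPM at 2 h and 3.19, 2.89 and 3.4 CPM at 6 h, beside 61.5, 61.6 and 59.5 CPM in untreated cells. Ifit1, which binds RNA with foreign cap structures, had 14.8, 11.9 and 18.9 CPM and 2.76, 2.81 and 3.46 CPM, and Ifit2 had 35.2, 21.8 and 45.1 CPM and 5.68, 4.41 and 6.07 CPM. All 3 genes were lower in every 6 h library, with 2 h replicate 2 the lowest of its group. Their log2 fold changes were -2.95 ± 0.22 (SE), -2.31 ± 0.17 (SE) and -2.65 ± 0.29 (SE). Ifit3 has a near-identical neighbour, Ifit3b, so the division of reads between them is uncertain.

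Antiviral effector genes followed, with 36 of 38 lower, none higher, a median of -1.12 and 23 at least 2-fold lower. Ifi44 had 16.2, 8.66 and 13.6 CPM at 2 h and 1.87, 1.14 and 1.29 CPM at 6 h. The groups did not overlap, as the choice of the largest falls required. The log2 fold change of -3.21 ± 0.29 (SE) (edgeR adjusted p 0.000109) was the largest of the list. Oas1a and Oas1g encode oligoadenylate synthetases, which make the second messenger that activates RNase L. Oas1a had 122, 93.1 and 119 CPM at 2 h and 36.9, 37.6 and 38.3 CPM at 6 h, and Oas1g had 38.1, 28.7 and 34 CPM and 9.99, 10.2 and 11.1 CPM, changes of -1.57 ± 0.09 (SE) and -1.68 ± 0.10 (SE), although reads of these close paralogs may be divided imperfectly. Rtp4, a chaperone of membrane receptors, fell by 2.68, Phf11d by 1.35 and Ifi35 by 1.12. Bst2, which tethers budding virions to the cell surface, fell by 0.73.

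Sensors of foreign nucleic acid fell in part: 13 of 20 tested members were lower, 2 higher and 5 not called, with a median of -0.36. Dhx58, which encodes the RIG-I-like receptor LGP2, had 52.9, 40.9 and 52.7 CPM at 2 h and 17.2, 18.4 and 18.3 CPM at 6 h, a change of -1.43 ± 0.09 (SE). Ddx60, a helicase that assists RNA sensing and is on none of the ISG lists, had 23.7, 13.9 and 22.8 CPM and 4.63, 3.7 and 3.91 CPM, a change of -2.31 ± 0.22 (SE). Both were lower in every 6 h library. The PYHIN genes Ifi213 and Ifi203, relatives of DNA sensors, fell by 2.63 and 1.76, with reads shared among close paralogs. Mavs, the mitochondrial adaptor of RNA sensing, went the other way, from 45.2, 49.5 and 40.9 CPM to 62.6, 65 and 66.2 CPM, a rise of 0.52, and Irf3 rose by 0.39.

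The interferon-inducible GTPases of the GBP and IRG families, which act on vacuoles that hold pathogens, fell in 13 of 14 tested members with a median of -1.16. Gbp2 had 164, 115 and 163 CPM at 2 h and 41.7, 40.4 and 41.1 CPM at 6 h, a change of -1.84 ± 0.13 (SE). Gbp9 fell by 2.08, Gbp4 by 1.36, Gbp3 by 1.33 and Igtp by 0.89. Reads of these clustered paralogs may likewise be divided imperfectly.

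The genes of the interferon signalling route divided by role. The ligand gene Ifnb1 was under the filter, with 2, 5 and 1 counts at 2 h and no count in the 6 h libraries, and a difference was not detectable at this depth. The receptor gene Ifnar1 was not called, with 175, 172 and 180.3 CPM at 2 h and 168, 175 and 171 CPM at 6 h. These libraries overlapped, and the log2 difference was -0.04 ± 0.04 (SE) (edgeR adjusted p 0.489).

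Transcription factor genes at the end of the route were lower at 6 h. Irf9 had 91.8, 87.6 and 88.4 CPM in untreated cells, 73.4, 60.9 and 73.2 CPM at 2 h and 34.9, 37.3 and 37.2 CPM at 6 h, a change of -0.92 ± 0.07 (SE) (edgeR adjusted p 5.42e-06). The 3 groups stepped down without overlap. Irf7 fell by 1.10 and Stat2 by 0.46. Socs3, a feedback inhibitor of cytokine receptors, rose by 0.40. In this list of 10 genes 4 fell, 1 rose and 5 were not called, and without 2 h replicate 2 the counts were 5 and 2; scaled by total counts, 2 rose.

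**Figure D3:**
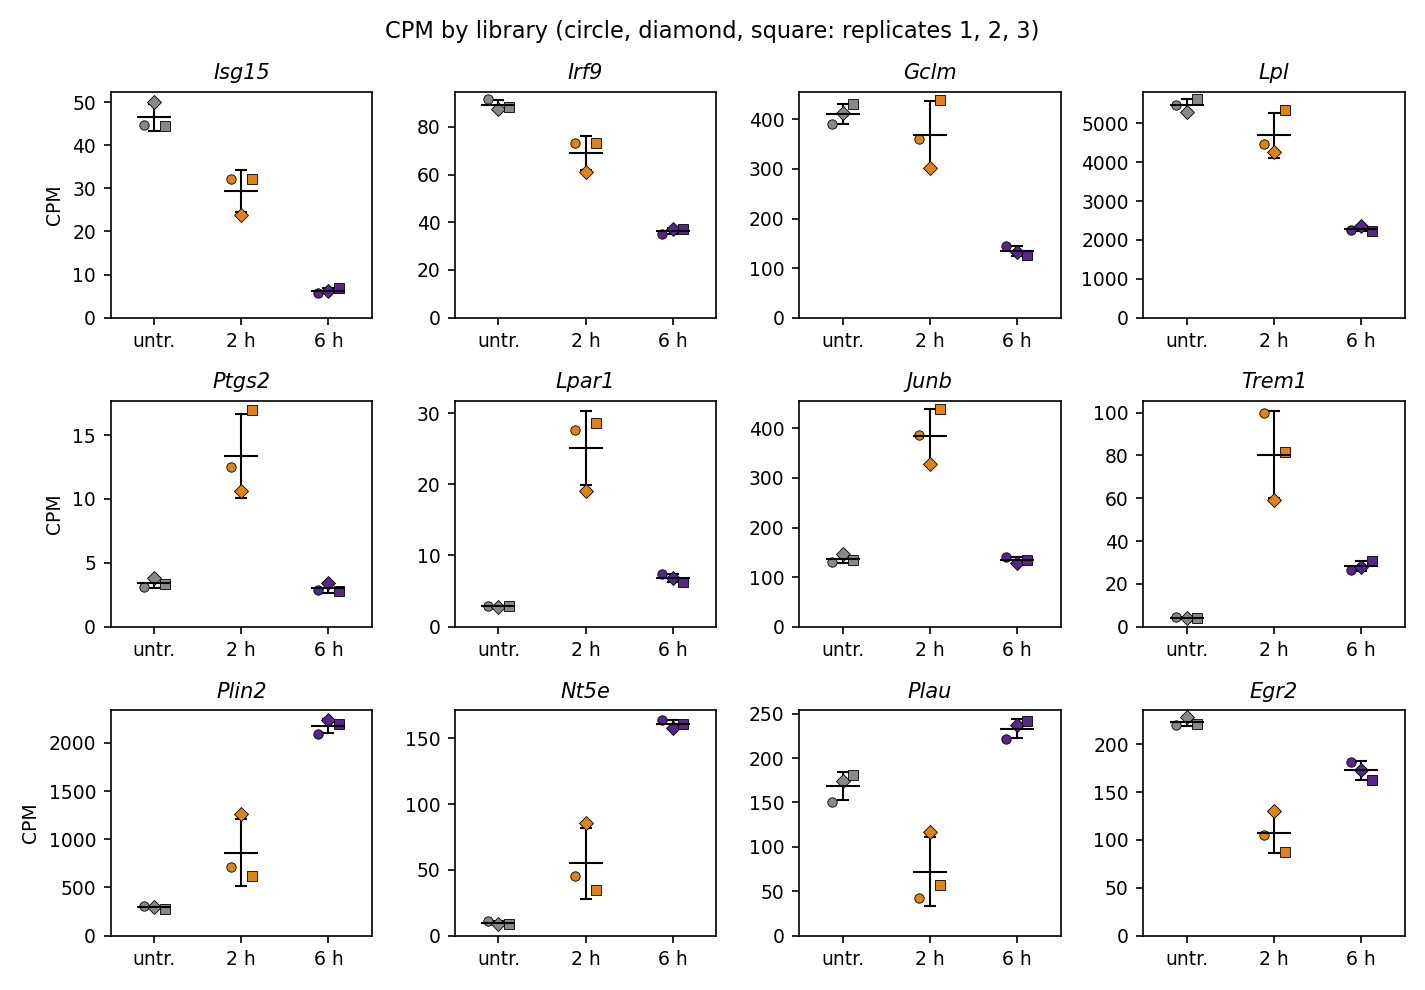
CPM (linear axis from 0) in each library of 12 genes at the 3 conditions; symbols are replicates, horizontal bars the mean and vertical bars the SD. Isg15 and Irf9 step down at both times, Ptgs2, Lpar1, Junb and Trem1 are highest at 2 h, Plin2 and Nt5e are highest at 6 h, and Plau and Egr2 are lowest at 2 h.

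Early-response genes did not move as a block between the times. Of 14 AP-1 genes 7 fell and 4 rose, and of 18 EGR, NR4A, Myc and related genes 8 fell and 5 rose. Over all tested genes 24.4% fell and 24.3% rose. Junb had 131, 146 and 134 CPM in untreated cells, 386, 327 and 438 CPM at 2 h and 141, 128 and 135 CPM at 6 h. The 6 h libraries lay at the untreated level and well below every 2 h library, with a log2 fold change of -1.51 ± 0.09 (SE) (edgeR adjusted p 6.26e-06). Fosl2 fell by 1.12 from 364, 269 and 393 CPM to 160.4, 148 and 164 CPM, and its 6 h libraries remained above the untreated ones, at 105, 102 and 106 CPM.

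The orphan nuclear receptor gene Nr4a1 had 1.1, 1.56 and 0.967 CPM in untreated cells, 16, 8.84 and 11.5 CPM at 2 h and 3.78, 3.45 and 3.38 CPM at 6 h. It was thus lower at 6 h than at 2 h, by 1.78 on the log2 scale, and above the untreated libraries at both times. Its relative Nr4a3 fell by 0.73 and the antiproliferative gene Btg2 by 0.55. Other early-response genes rose. Egr2 had 220.5, 229 and 221 CPM in untreated cells, 105, 131 and 87.6 CPM at 2 h and 182, 173 and 163 CPM at 6 h, lowest at 2 h in every library, and its change was 0.68 ± 0.12 (SE). Atf3 rose by 0.59, Batf by 0.70 and Myc by 0.64.

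Genes that answer cyclic AMP and CREB were split, with 8 lower and 8 higher of 20, against 24.4% and 24.3% of all tested genes. The 8 that fell were 5 without 2 h replicate 3. Pde4b, a phosphodiesterase that degrades cyclic AMP, had 32.5, 36.1 and 35.4 CPM in untreated cells, 116, 94.6 and 141 CPM at 2 h and 46.3, 49.4 and 48 CPM at 6 h. No 6 h library reached a 2 h library, and the change was -1.29 ± 0.12 (SE). The circadian repressor genes Nfil3 and Per1 fell by 1.09 and 0.75. Creb3l2 rose by 0.54 and Rgs16, a GTPase-activating protein for G alpha subunits, by 1.03, from 4.43, 5.74 and 2.94 CPM to 9.99, 8.97 and 8.44 CPM.

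Feedback genes of the MAP kinase pathway included 7 that rose and 4 that fell of 15, and the 7 were 4 without 2 h replicate 1. Dusp6, the phosphatase of ERK, had 59.4, 57.1 and 61 CPM in untreated cells, 14.8, 23 and 6.85 CPM at 2 h and 49.4, 38.4 and 36.8 CPM at 6 h. All 6 h libraries were above all 2 h libraries, which themselves spread more than 3-fold. The change of 1.44 ± 0.39 (SE) had an edgeR adjusted p of 0.021. This call was lost with only the 6 LPA libraries or without 2 h replicate 1 or 6 h replicate 1. Dusp7 rose by 0.85, from 12, 15.6 and 11.3 CPM to 23.3, 22.1 and 25.2 CPM.

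Dusp8, a phosphatase of the JNK and p38 kinases, fell by 0.93, from 9.51, 8.88 and 10.9 CPM to 3.65, 6.06 and 5.42 CPM, beside 1.25, 1.44 and 1.07 CPM in untreated cells. A stretch upstream of its first listed RefSeq start was printed because 2 full cyclic AMP response elements stand within 60 bases of each other. It reads as follows, with TGACGTCA in capitals.
Dusp8: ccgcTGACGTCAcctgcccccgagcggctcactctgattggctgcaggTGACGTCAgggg

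The stretch lies for Dusp8 at chr7:142095336-142095395 (minus strand). This is inside the gene as annotated by GENCODE, 142079490 to 142095843, and not upstream of its outermost start. Dusp5 fell by 0.46 and the Raf inhibitor gene Spred2 by 0.64. Among Kruppel-like factors, 4 of 10 fell and 1 rose, led by Klf4, which fell by 1.23 from 45.4, 39.8 and 61.5 CPM to 19.7, 20.7 and 21.8 CPM, and Klf11, which fell by 0.76; the number that rose was 4 when scaled by total counts, 3 with the replicate block or without 2 h replicate 2, 2 with DESeq2 and 0 without 6 h replicate 1.

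Receptors for LPA itself changed in opposite directions. Lpar1 (chromosome 4, 58435255 to 58553898, minus strand) had 2.84, 2.83 and 2.86 CPM in untreated cells, 27.6, 19.1 and 28.6 CPM at 2 h and 7.42, 6.77 and 6.34 CPM at 6 h. It stood highest at 2 h and between the other groups at 6 h, with no overlap, and its change was -1.88 ± 0.14 (SE) (edgeR adjusted p 1.39e-05). Lpar5 was lowest at 2 h, with 4.37, 4.16 and 3.97 CPM, 1.56, 1.99 and 1.91 CPM and 2.99, 3.23 and 3.33 CPM in the same order, and rose by 0.81.

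Lpar6 rose by 0.16 and P2ry10, a receptor for lysophosphatidylserine, fell by 0.25. The Lpar6 call was lost at equal depth or without 2 h replicate 1 or 3 or 6 h replicate 1 or 2. The P2ry10 call was lost without 2 h replicate 3 or 6 h replicate 1 or 3. Lpar2 and Lpar3 were not called, at 1.78, 1.7 and 1.74 and 0.729, 0.732 and 0.674 CPM at 2 h and 1.54, 2.31 and 1.92 and 0.427, 0.672 and 0.638 CPM at 6 h, and Lpar4 was below the filter. Of the enzymes that make or break down LPA, 3 of 12 rose and 3 fell, shares near the 24.3% and 24.4% of all tested genes. The lipid phosphate phosphatase gene Plpp3 rose by 0.92, from 38.3, 55.8 and 39.2 CPM to 87.8, 76.4 and 89.1 CPM, and its relative Plpp1 fell by 1.2, from 4.27, 3.58 and 4.48 CPM to 1.61, 1.92 and 1.77 CPM. The lysophosphatidic acid phosphatase gene Acp6 rose by 0.61.

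Of 21 genes for G protein subunits, adenylyl cyclases, protein kinase A and RGS proteins, 10 rose and 5 fell. The adenylyl cyclase gene Adcy7 had 311, 369 and 282 CPM at 2 h and 505, 497 and 485 CPM at 6 h, a rise of 0.63, and Adcy9 rose by 0.63. Gna15, a Gq-class alpha subunit of blood cells, rose by 0.52, from 18.3, 22.2 and 17 CPM to 26.9, 28.7 and 27 CPM, and remained below its untreated 38, 40.9 and 38.9 CPM. Rgs18 fell by 1.13 and Rgs2 by 0.32.

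Of 10 prostaglandin synthesis genes 5 fell and 1 rose. Ptgs2, the inducible cyclooxygenase, had 3.09, 3.81 and 3.36 CPM in untreated cells, 12.5, 10.6 and 17 CPM at 2 h and 2.89, 3.45 and 2.77 CPM at 6 h. The 6 h and untreated libraries overlapped, and both were below every 2 h library. The change from 2 h to 6 h was -2.13 ± 0.17 (SE) (edgeR adjusted p 1.83e-05). Ptges, the terminal synthase of prostaglandin E, fell by 0.56, the phospholipase gene Pla2g4a, which releases the substrate, by 0.68, and the thromboxane synthase gene Tbxas1 by 0.44.

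Receptors of these lipids moved less. Ptger2 fell by 0.37 and Ptger4 rose by 0.31. The prostacyclin receptor gene Ptgir was 232, 228 and 222 CPM in untreated cells, 91.9, 109.5 and 85.3 CPM at 2 h and 136, 131 and 124 CPM at 6 h, a rise of 0.44 that left it below the untreated libraries. On the leukotriene side, 2 of 9 genes rose and 3 fell, with a median of 0.02, beside 24.3% and 24.4% of all tested genes. The number that rose was 1 in most alternatives and 4 when scaled by total counts. Alox5, the first enzyme of the pathway, fell by 0.85, from 20.3, 18 and 23.1 CPM to 11.5, 11.3 and 11.2 CPM, while Ptafr rose by 0.43.

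Chemokine genes fell more often than they rose, 11 against 4 of 17, with a median of -0.61, and the 4 were 2 without 2 h replicate 1. Cxcl3 had 160.5, 209.9 and 202 CPM in untreated cells, 369.7, 337 and 472 CPM at 2 h and 59.9, 67.2 and 57.2 CPM at 6 h. The 6 h libraries were the lowest of the 3 groups and the 2 h libraries the highest, and the change was -2.68 ± 0.15 (SE) (edgeR adjusted p 1.83e-05). Cxcl10, an ISG that attracts T cells, was low throughout, with 2.44, 4.01 and 4.35 CPM, 2.13, 1.76 and 3.28 CPM and 0.230, 0.181 and 0.280 CPM in the same order, and fell by 3.32.

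The CCR4 ligand genes Ccl17 and Ccl22 fell by 0.71 and 0.61, the latter from 604, 571 and 614 CPM to 383, 414 and 377 CPM. Ccl6 fell by 0.61 and Ccl2, a monocyte attractant, by 0.83, while Cxcl14 rose by 0.84. Among chemoattractant receptors 5 of 14 rose and 5 fell, beside 24.3% and 24.4% of all tested genes. The complement receptor C5ar1 had 67.7, 106 and 59.6 CPM at 2 h and 179, 181 and 164 CPM at 6 h, above 60.1, 66.5 and 60.8 CPM in untreated cells, and rose by 1.16. C3ar1 rose by 0.58, the formyl peptide receptor gene Fpr2 fell by 1.39 and Ccrl2 by 0.78.

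Among 20 tested cytokine genes 5 rose and 7 fell, beside 24.3% and 24.4% of all tested genes. Without 2 h replicate 1 or 3 or 6 h replicate 3 the number that rose was 3. Il1b had 6.53, 6.27 and 5.04 CPM in untreated cells, 74.9, 38.6 and 51.3 CPM at 2 h and 19.6, 16.9 and 15.2 CPM at 6 h, a change of -1.68 ± 0.25 (SE) (edgeR adjusted p 0.00133). Osm, a cytokine of the interleukin 6 family, had 5.76, 6.76 and 6.56 CPM, 68.6, 52.3 and 67.7 CPM and 33.5, 34.4 and 36.4 CPM and fell by 0.85. Both genes remained above every untreated library at 6 h. Il16 rose by 0.99, and the interleukin 1 receptor antagonist gene Il1rn fell by 0.48.

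Tnf behaved differently from these. It was 18.3, 21.2 and 20.4 CPM in untreated cells and 2.9, 4.57 and 2.2 CPM at 2 h. At 6 h it was 6.28, 5.59 and 5.4 CPM. The rise of 0.78 ± 0.22 (SE) (edgeR adjusted p 0.0159) left it well below the untreated libraries. Its call was lost without a filter or without 2 h replicate 1. Genes of the NF-kappaB circuit fell in 11 of 19 members and rose in 3, with a median of -0.32. Nfkb1 had 218, 173 and 201 CPM at 2 h and 117, 120 and 118 CPM at 6 h, and fell by 0.74. Tnip3, an inhibitor of this signal, fell by 1.39 and the ubiquitin ligase gene Birc3 by 0.65. Trem1, an amplifying receptor of myeloid cells, had 4.49, 4.1 and 4.04 CPM in untreated cells, 99.9, 59.4 and 81.5 CPM at 2 h and 26.3, 27.9 and 30.8 CPM at 6 h, a change of -1.50 ± 0.17 (SE).

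Lipid storage and lipolysis genes went in both directions, 6 higher and 7 lower of 17. Plin2, which coats lipid droplets, had 307, 299 and 281 CPM in untreated cells, 708, 1257 and 620 CPM at 2 h and 2096, 2232 and 2190 CPM at 6 h. Each time stood above the one before without overlap, and 2 h replicate 2 was far above its 2 partners. The log2 fold change was 1.33 ± 0.25 (SE) (edgeR adjusted p 0.00462), and 1.71 without that library.

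Angptl4, an inhibitor of lipoprotein lipase, had 4.43, 3.21 and 3.11 CPM, 43.1, 68.2 and 28.8 CPM and 113, 115 and 112 CPM in the same order and rose by 1.27. The lipoprotein lipase gene Lpl itself fell, from 4461, 4275 and 5355 CPM at 2 h to 2266, 2354 and 2243 CPM at 6 h, with 5464, 5298 and 5638 CPM in untreated cells. Every 6 h library had less than any 2 h library, and the change was -1.04 ± 0.07 (SE) (edgeR adjusted p 5.21e-06). The fatty acid binding protein genes Fabp4 and Fabp5 fell by 0.80 and 0.68 and the monoacylglycerol lipase gene Mgll by 0.80. Hilpda, an inhibitor of adipose triglyceride lipase, was already at 288, 334 and 327 CPM at 2 h against 8.69, 10.4 and 9.21 CPM in untreated cells, and reached 348, 356 and 366 CPM at 6 h, a rise of 0.17 whose call was lost without 2 h replicate 1 or any one of the 6 h libraries.

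Fatty acid oxidation genes rose in 12 of 22 members and fell in 4, with a median of 0.24. Cpt1a, the entry enzyme for fatty acids into mitochondria, had 136, 121 and 121 CPM in untreated cells, 184, 226 and 162 CPM at 2 h and 312, 313 and 309 CPM at 6 h, a rise of 0.71 ± 0.10 (SE). The carnitine carrier gene Slc25a20 rose by 0.52, and the acyl-CoA dehydrogenase genes Acads and Acadl by 0.50 and 0.42. Acsl1, which activates fatty acids, fell by 1.07.

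Fatty acid synthesis went the opposite way, with 10 of 13 lower, 2 higher and a median of -0.40. The 2 were 1 without a filter, at equal depth, with only the 6 LPA libraries, or without 2 h replicate 1 or any one of the 6 h libraries. The desaturase gene Scd2 had 1314, 1034 and 1468 CPM at 2 h and 770, 681 and 686 CPM at 6 h, a change of -0.84 ± 0.11 (SE), and Fads2 fell by 0.61 and the malic enzyme gene Me1 by 0.81. Fasn, the fatty acid synthase gene, was lowest at 2 h, with 250, 262 and 274 CPM in untreated cells, 98.3, 117 and 103 CPM at 2 h and 149, 158 and 152 CPM at 6 h, and rose by 0.53. In cholesterol synthesis 11 of 24 fell and 1 rose, or 2 when scaled by total counts or with the replicate block. Hsd17b7 fell by 0.86, the mevalonate kinase gene Mvk by 0.77 and Nsdhl by 0.77, while Dhcr7 rose by 0.13, a call lost without 2 h replicate 1 or 6 h replicate 3. The cholesterol exporter gene Abcg1 was lowest at 2 h, with 159, 183 and 133 CPM against 268, 243 and 260.5 CPM at 6 h, and rose by 0.70. On the list that holds it, targets of the nuclear receptor LXR, 4 of 11 rose and 4 fell, among them Nr1d2 by 1.15. The shares over all tested genes were 24.3% and 24.4%.

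Nt5e (chromosome 9, 88327197 to 88372092, plus strand), which encodes CD73, the enzyme that makes adenosine from AMP, had 11, 9.19 and 9.04 CPM in untreated cells, 45.3, 85.6 and 34.6 CPM at 2 h and 164, 158 and 161 CPM at 6 h. The 3 groups ascended without overlap, and the change was 1.53 ± 0.32 (SE) (edgeR adjusted p 0.00781). Entpd1, which makes the AMP, rose by 0.39 and the nucleoside transporter gene Slc29a3 by 0.43. The adenosine receptor genes Adora2a and Adora2b fell by 0.78 and 0.84. Plau, the urokinase plasminogen activator, was lowest at 2 h, with 151, 174 and 180.4 CPM, 42.9, 116 and 57.2 CPM and 221, 237 and 241 CPM, and its receptor gene Plaur fell by 0.40, from 457, 397 and 429 CPM to 310.4, 337 and 326 CPM. F3, the tissue factor gene, rose by 0.80 between the times but stayed below its untreated 6.93, 5.9 and 6.89 CPM.

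Growth factor genes fell in 6 of 14 members and rose in 2, or in 4 when libraries were scaled by total counts. The co-receptor genes Nrp1 and Nrp2 fell by 0.71 and 0.95, Nrp2 from 545, 459 and 606 CPM to 296, 273 and 266 CPM. Vegfa, the vascular endothelial growth factor gene, had 28.5, 25.7 and 23.2 CPM in untreated cells, 266, 219 and 252 CPM at 2 h and 196, 147 and 167 CPM at 6 h. It fell by 0.53 between the times, and all 6 LPA libraries were above all untreated ones. Pdgfa rose by 0.90. Lepr, the leptin receptor gene, rose by 1.15 with a wide spread at 2 h, from 16, 22.2 and 8.26 CPM to 42.5, 33.6 and 29.1 CPM. Untreated cells had 1.4, 0.953 and 0.589 CPM. The Lepr call was lost without a filter, with only the 6 LPA libraries, or without 2 h replicate 1 or any one of the 6 h libraries. Csf2rb, the signalling chain of the GM-CSF receptor, rose by 0.46, from 3264, 3603 and 3072 CPM to 4411, 4570 and 4643 CPM. Of 26 tested cytokine and growth factor receptor genes 8 rose and 8 fell, beside 24.3% and 24.4% of all tested genes. Csf3r fell by 1.06 and Il13ra1 by 0.50.

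**Figure D4:**
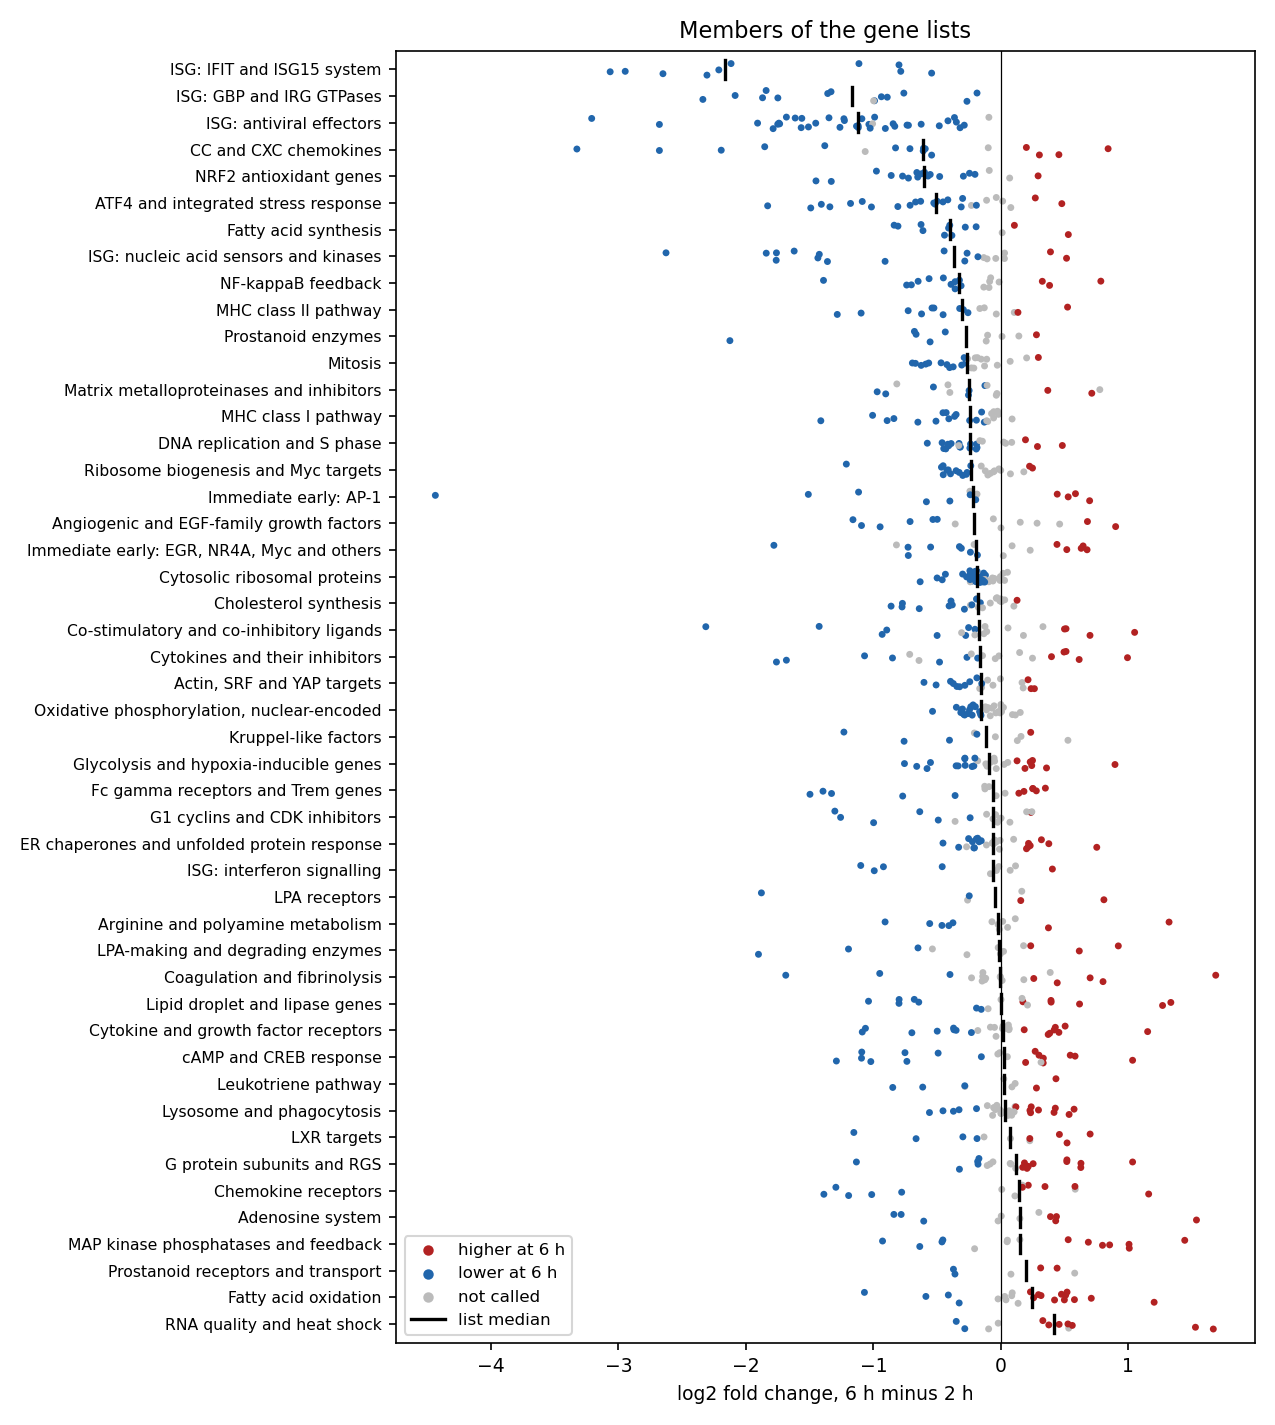
Log2 fold change (6 h minus 2 h, horizontal axis) of the tested members of each gene list, ordered by list median (black bar). Red points were called higher, blue lower and grey not called; the IFIT and ISG15 list has the lowest median, -2.16, and the heat shock list the highest, 0.42.

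Antioxidant genes controlled by NRF2 fell in 16 of 19 members, with 1 higher and a median of -0.60. Gclc and Gclm encode the subunits of the enzyme that limits glutathione synthesis. Gclc had 179, 182 and 185 CPM in untreated cells, 257, 207 and 273 CPM at 2 h and 100, 97.7 and 95.4 CPM at 6 h, and Gclm had 391, 412 and 431 CPM, 361, 303 and 439.5 CPM and 145, 133 and 126 CPM. The 6 h libraries were the lowest of all groups in both genes, with changes of -1.33 ± 0.08 (SE) and -1.45 ± 0.12 (SE) (edgeR adjusted p 5.21e-06 and 4.29e-05). Srxn1 fell by 0.98, Prdx1 by 0.77 and G6pdx, the first enzyme of the pentose phosphate pathway, by 0.66. The 1 member that rose was Nfe2l2, the gene of NRF2 itself, at 306, 318 and 274 CPM at 2 h and 392, 360.3 and 349 CPM at 6 h, a change of 0.29 ± 0.06 (SE).

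Targets of ATF4, the transcription factor of the integrated stress response, fell in 19 of 26 members and rose in 2, with a median of -0.51. The amino acid transporter gene Slc7a5 had 19.4, 21.3 and 21.2 CPM in untreated cells, 18.9, 15.4 and 22.2 CPM at 2 h and 6.24, 7.03 and 6.67 CPM at 6 h, a change of -1.49 ± 0.12 (SE). Slc1a4 had 2.27, 2.4 and 2.46 CPM, 7.01, 6.12 and 6.72 CPM and 2.46, 2.78 and 2.23 CPM and fell by 1.41. In Slc1a4 the 6 h libraries lay at the untreated level, whereas in Slc7a5 they lay below it. Sesn2 fell by 0.67 and Slc38a2 by 0.53, while Cebpg, a partner of ATF4, rose by 0.48.

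The heat shock list rose in 7 of 12 members and fell in 2, with a median of 0.42. Hspa1a had 6.59, 7.86 and 6.83 CPM in untreated cells, 8.77, 13.7 and 5.57 CPM at 2 h and 24.5, 34.4 and 31.4 CPM at 6 h, and the groups at 2 h and 6 h did not overlap. Bag3, Hsf1 and Dnaja1 rose by 0.56, 0.53 and 0.38, and the mitochondrial chaperonin gene Hspe1 fell by 0.35. This list was included because handling of cells can move such genes, and that was not tested. Among 28 genes for chaperones and the unfolded protein response of the endoplasmic reticulum 7 rose and 10 fell. The shares over all tested genes were 24.3% and 24.4%. Hsph1 rose by 0.75 and Hsp90b1 fell by 0.33.

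Antigen presentation genes fell more often than they rose. In the class I pathway 15 of 23 fell and none rose, or 1 when libraries were scaled by total counts. Nlrc5, the transcriptional activator of class I genes, had 96.5, 96.8 and 92 CPM in untreated cells, 69.2, 57.8 and 70.2 CPM at 2 h and 32.6, 32.4 and 33.1 CPM at 6 h, stepping down without overlap, with a change of -1.01 ± 0.07 (SE) (edgeR adjusted p 5.21e-06). The proteasome activator gene Psme2 and the immunoproteasome genes Psmb10 and Psmb8 fell by 0.89, 0.84 and 0.65, and the nonclassical class I gene H2-T24 by 1.41.

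In the class II pathway 10 of 16 fell and 2 rose, and the 2 were 1 with only the 6 LPA libraries or without 2 h replicate 1 or 6 h replicate 2 or 3. H2-DMb1, a subunit of the peptide-loading factor H2-DM, had 133, 98.8 and 118 CPM at 2 h and 53, 57 and 53.3 CPM at 6 h, a change of -1.10 ± 0.09 (SE). Ciita, the master activator of class II genes, had 84.1, 78.5 and 79.3 CPM in untreated cells, 22.3, 20.3 and 23.6 CPM at 2 h and 17.2, 19.4 and 18.6 CPM at 6 h. Most of its difference from the untreated level was thus present at 2 h, and the further change was -0.26 ± 0.07 (SE). Rfxank rose by 0.52. Of 20 genes for co-stimulatory and co-inhibitory ligands 8 fell and 4 rose (2 without 6 h replicate 3): Tnfsf4 (OX40 ligand) fell by 1.42, Lgals9 by 0.93 and Pvr by 0.89, while Vsir (VISTA) rose by 0.70 and Havcr2 (TIM-3) by 0.50. Cd80 was not called, at 16.3, 15.2 and 13.9 CPM and 18.3, 17.1 and 16.3 CPM (edgeR adjusted p 0.0539).

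Ribosomal protein and oxidative phosphorylation genes showed small shifts, and all their called members were lower at 6 h. Cytosolic ribosomal protein genes fell in 33 of 47 members and rose in none, with a median of -0.19, and nuclear-encoded subunits of oxidative phosphorylation fell in 17 of 33 with a median of -0.16. No ribosomal protein gene was called higher under any scaling, and no oxidative phosphorylation gene except 3 when libraries were scaled by total counts, 1 with the replicate number as a block, 1 without 2 h replicate 2 and 1 without 6 h replicate 1. Rpl4 had 568, 525 and 578 CPM at 2 h and 459.8, 453 and 444 CPM at 6 h, a change of -0.30 ± 0.05 (SE). Cycs, cytochrome c, fell by 0.54. Npm1, a nucleolar chaperone on the ribosome biogenesis list that is counted further below, fell by 0.45. Scaling by total counts moved the median of all genes from -0.006 to 0.046.

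DNA replication genes fell in 15 of 24 members and rose in 3, and mitosis genes fell in 12 of 24 and rose in 1. Mcm2 and Mcm3, subunits of the replicative helicase, fell by 0.45 and 0.39, Bub1b by 0.59 and Ccnb2 by 0.69, while Cdt1, which licenses origins, rose by 0.48. Cdkn1a, the p21 inhibitor of cyclin-dependent kinases, had 199, 231 and 211 CPM in untreated cells, 404, 329 and 407 CPM at 2 h and 155, 162 and 159 CPM at 6 h. The 6 h libraries were below both other groups, with a change of -1.26 ± 0.08 (SE) (edgeR adjusted p 5.21e-06). Ccnd1 had 19.7, 21.7 and 20.2 CPM, 9.71, 7.16 and 10.9 CPM and 3.58, 3.54 and 3.99 CPM in the same order and fell by 1.30, and Ccnd2 fell by 1.00.

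Among lysosomal genes 9 of 31 rose (14 when scaled by total counts) and 5 fell, beside 24.3% and 24.4% of all genes. The called members included subunits of the proton pump, Atp6v0d2 and Atp6v0a1, which rose by 0.53 and 0.43, and their regulator gene Tfeb, which was lowest at 2 h, with 44.9, 44.9 and 44 CPM, 21.5, 26.1 and 19 CPM and 31.3, 34.5 and 33.9 CPM, and rose by 0.57. Sqstm1, an autophagy receptor that is also a target of NRF2, fell by 0.56. Arginine genes included Ass1, which fell by 0.91 from 1469, 1219 and 1560 CPM to 714, 778 and 771 CPM, and Arg1, which rose by 1.32 from 4.0, 8.87 and 4.65 CPM to 13.3, 14.8 and 16.4 CPM. In glycolysis and hypoxia genes 7 of 30 rose and 12 fell, none by 2-fold, beside 24.3% and 24.4% of all tested genes called higher and lower. Mmp13, a collagenase, fell by 0.90 and Mmp19 rose by 0.71, from 797, 945 and 621 CPM to 1442, 1192 and 1239 CPM, against 283, 224 and 223 CPM in untreated cells.

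Marker genes of other cell types were measured beside these results. Monocyte markers fell in 4 of 8 members, and the sum of the list was 405 to 474 CPM at 2 h and 342 to 385 CPM at 6 h; Ccr2 had 86.8, 54.4 and 63.4 CPM in untreated cells, 29, 17 and 25.7 CPM at 2 h and 14.9, 11.3 and 9.72 CPM at 6 h, a call that was lost without 2 h replicate 1 or 3 or 6 h replicate 2 or 3. The sum of 11 neutrophil markers was 13.1 to 18.3 CPM and 8.59 to 10.6 CPM, with Ly6g and Elane at or near 0. The sum of 7 plasmacytoid dendritic cell markers, most of it from the ISG Bst2, was 339 to 430 CPM and 227 to 255 CPM, with Siglech at or near 0. Sums of 8 B cell markers were 53.3 to 61.4 CPM and 42.1 to 44.5 CPM, with Pax5 at 0 in all 6 LPA libraries. Those of 9 T cell markers were 720 to 823 CPM and 990 to 1020 CPM, nearly all from Il7r, with Trac and Cd3g at 0. Their part in the falls and rises above was not tested.

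Other lists were carried by 1 or a few genes. Natural killer cell markers summed to 5.81 to 8.74 CPM at 2 h and 2.23 to 2.38 CPM at 6 h, carried by Klrk1, with Ncr1 and Prf1 at 0. Mast cell and basophil markers summed to 7.59 to 9.53 CPM and 7.55 to 8.11 CPM, carried by Gata2, with 5 of 10 at 0 in every library, and eosinophil markers to 24.2 to 26.8 CPM and 19.4 to 22.7 CPM, with Epx and Prg3 at 0 in the LPA libraries. Erythroid and megakaryocyte markers summed to 91.7 to 102 CPM and 75.8 to 78.6 CPM, and stromal markers to 4.85 to 5.46 CPM and 4.64 to 5.02 CPM. Within the dendritic cell and macrophage lists, Irf8 rose by 0.41 and Itgax fell by 0.30, and Mertk rose by 0.84 while Fcgr1 and C1qa fell by 0.77 and 0.45.

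**Figure D5:**
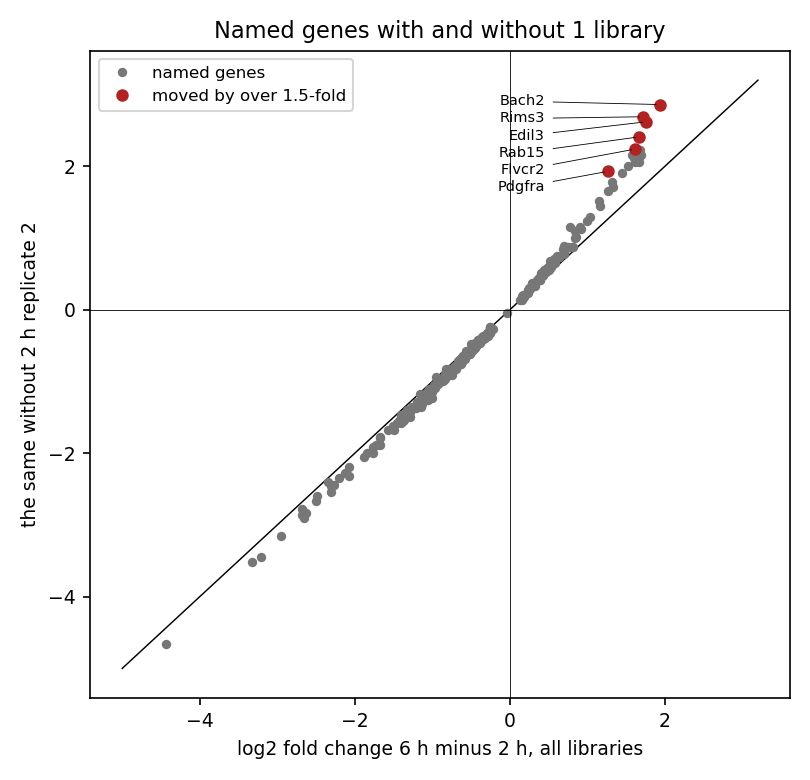
Log2 fold change (6 h minus 2 h) of each named gene with all libraries (horizontal axis) and without 2 h replicate 2 (vertical axis); the line marks equality. No called gene changes sign, most points lie slightly farther from 0 without the library, and the 6 red genes (Bach2, Edil3, Rims3, Rab15, Flvcr2 and Pdgfra) move by over 1.5-fold, Pdgfra from 1.27 to 1.93.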

How the data were processed

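RNA-seq was done on 9 libraries of cultured mouse dendritic cells grown from bone marrow: 3 untreated, 3 given LPA for 2 h and 3 for 6 h. Per the labels' protocols the mRNA libraries carry no strand, so a gene and one that overlaps it on the opposite strand share reads. What the authors deposited is 1 table of expected counts, that is, estimated counts in whole numbers with no scaling. RSEM 1.2.3, DESeq2 and mm10 are named in the submitters' processing notes; aligner and annotation: not given in the sources used here. RSEM splits reads that match several transcripts, which makes the counts of near-identical genes uncertain.

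Each of the 38887 rows lists Ensembl transcript identifiers, which were looked up in GENCODE M21 (GRCm38, to which mm10 corresponds). A single gene was found for 37776 rows (98.5% of counts), several genes for 176 and no gene for 935. The table had 0 mitochondrial rows. Between replicates of 2 h or 6 h, chi-square per degree of freedom was 9.09 to 39.5, far above sampling noise, so each library was used.

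The filter was filterByExpr (minimum count 10, minimum total 15). A model with a mean per group and no covariate was fitted to all 9 libraries with edgeR 4.0.16 (R 4.3.3; TMM factors 0.974 to 1.03; glmQLFit with robust = TRUE; glmQLFTest), and the contrast was 6 h minus 2 h. A gene was called where its p, adjusted by Benjamini-Hochberg over 14363 genes, was under 0.05. The common dispersion came to a biological coefficient of variation of 0.075. The SE of a log2 fold change is its size over the root of the F statistic. An unadjusted p under 0.05 was reached by 7868 genes. The fit was also run on simulated data for 14296 genes. It called 77.6%, 92.5% and 100% of genes changed 1.5-, 2- and 4-fold, and 4.3% of its calls were unchanged genes. In the simulation 67, 67 and 66 genes were changed, all genes had a coefficient of variation of 0.075 and no library stood apart. The data differ in these points, so the rates need not hold for them.

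The comparison and the gene lists were chosen with earlier results of these data known. Named genes are, from the called genes with an established symbol, separated groups and at least 5 CPM in the higher group, the 12 that rose most and the 12 that fell most. They also include, per list, the 4 called members with the smallest p and the largest change in each direction, and a fixed set with Ifnb1, Ifnar1, Cxcl10, Ptgs2, Vegfa, Nt5e and the LPA receptors. List medians are described and not tested. Promoter windows and their sequences are from RefSeq (GRCm38.p6). Alternatives were other scalings, DESeq2 1.42.0, limma-voom (limma 3.58.1), other filters, equal depth, only the 6 LPA libraries, a replicate block, a test against a 1.2-fold change and leaving out each 2 h and 6 h library.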

Additional observations from a re-analysis of the deposited data

How the results depend on the processing

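Counts of genes higher and lower stayed within 1.5 times of 3493 and 3498 under every alternative except the test against a 1.2-fold change, which asks for more and called 1151 higher and 1387 lower. Leaving out each library in turn gave 2851 to 3667 genes higher, 2916 to 3758 lower, 112 to 326 higher by 2-fold or more and 419 to 597 lower by as much; the 326 came without 2 h replicate 2. DESeq2 called 3339 higher and 3305 lower, limma-voom 3505 and 3466, and scaling by total counts 4210 and 2912.

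Replicate numbers were not taken to pair the libraries: deviations of same-numbered libraries correlated at 0.128, 0.035 and 0.106, not all over 0.1, and 2 h replicate 2 correlated best with 6 h replicate 1 (0.053). With the replicate block 3770 genes were higher, 3818 lower, 170 higher by 2-fold or more and 499 lower by as much.

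Of 290 called named genes 276 kept direction and call in every alternative in which they could be tested, the test against a 1.2-fold change not being run for single genes, 14 lost the call in at least 1 (Rims3, Dusp6, Klf10, Tnf, Lepr, Cysltr1, P2ry10, Lpar6, Dhcr7, Ccne1, Ccr2, Pdgfra, Pdgfrb and Hilpda) and 0 turned; the causes were not tested. Cd80 was called with total counts, with the block and without 2 h replicate 1. Depth limits genes such as Ifnb1, Il10 and Lpar4, which had at most 15 counts in any 2 h or 6 h library. When only the 250 upstream bases were searched, GAAANNGAA was in 16.7% of genes at least 2-fold lower, 5.7% of those at least 2-fold higher and 6.5% of all tested.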

Other observations

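Other gene groups changed less uniformly. Actin, SRF and YAP target genes fell in 10 of 20 tested members and rose in 3; the actin crosslinker gene Flna fell by 0.40 and Axl, which encodes a receptor tyrosine kinase, by 0.51, while Fhl3 rose by 0.26. Genes of ribosome biogenesis fell in 13 of 25 and rose in 2, led by Rrp1b, which fell by 1.21; the 2 were 1 at equal depth or without 2 h replicate 1 or 6 h replicate 2 or 3. Among Fc gamma receptors, Trem and related lectin receptors 6 of 16 rose, among them Fcgr3 by 0.35, and 5 fell, among them Clec4e by 1.33; the 6 were 3 without 6 h replicate 1. Matrix metalloproteinase and related genes fell in 6 of 15 and rose in 2; Mmp9 fell by 0.97 and Adam8 rose by 0.37.

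Tnfsfm13, a read-through of 2 neighbouring TNF family genes singled out after its values were seen, had the largest fitted difference of all tested genes, 10.11 on the log2 scale, and was not called (edgeR adjusted p 0.162); with no 2 h count that value is no bound on the change. It had 0 CPM in every 2 h library and 4.93, 0 and 2.87 CPM in 6 h replicates 1, 2 and 3, beside 0, 0 and 2.14 CPM in the untreated libraries.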
